A study of Mus musculus with 4 samples.

Results

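The mitochondrially encoded genes are those whose symbol begins with mt-. The 4 gene tables held 33 of them among 29245 gene columns: all 13 mRNAs, both rRNAs and 18 of the 22 tRNAs of the mouse mitochondrial genome. The tRNA genes mt-Ty, mt-Td, mt-Tk and mt-Tg have no column in the tables. The rule for a member uses its name and no measured value, although the group was picked with earlier results of these data known.

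Wells held cells of C57BL/6 mouse hearts from 4 animals: KO1 and KO2, labelled Mst1/2-deficient, and WT1 and WT2, labelled WT. MST1 and MST2 are the Hippo pathway kinases encoded by Stk4 and Stk3. Slow centrifugation parted each heart suspension into a cardiomyocyte (CM) and a non-cardiomyocyte (NCM) fraction, and polyadenylated RNA was sequenced per well. The groups are thus KO CM, KO NCM, WT CM and WT NCM, each with 2 animals. The labels used here give neither age nor sex, do not mention injury or treatment of the hearts, and do not name the deleted allele or the cells in which it was deleted. Stk4 and Stk3 UMIs were found in all groups. With mt- and haemoglobin genes left out of the total, Stk4 had 17.9 and 9.31 CPM (UMIs scaled to a common total) in KO CM, against 32.3 and 14.2 in WT CM, and 45.8 and 37.5 in KO NCM, against 53.1 and 47.3 in WT NCM. Stk3 had 31.2 and 11.9 in KO CM, against 12.7 and 13.8 in WT CM, and 29.0 and 26.3 in KO NCM, against 23.5 and 38.6 in WT NCM. Stk4 in the NCM fraction was lower in both KO animals, and the other sets overlapped. UMIs can come from a part of the gene that was not deleted, so these counts do not check the genotype.

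A well was kept with at least 10000 UMIs (unique molecular identifiers, one per captured molecule) and 300 detected genes, which left 3990 of 4275 wells. KO1 and KO2 gave 264 and 385 CM wells, against 210 and 274 for WT1 and WT2, and 715 and 747 NCM wells, against 692 and 703. Summed UMIs per animal and fraction lay between 24921656 and 109890038. Each chip carried 1 genotype and 1 fraction. Genotype and chip within a fraction, and fraction and chip within a genotype, therefore cannot be told apart. Of 3185 distinct well barcodes, 954 occurred on more than 1 chip. Cardiomyocyte markers took 2.41 and 6.16% of UMIs outside mt- genes in KO CM, 4.64 and 6.22% in WT CM, 0.173 and 0.389% in KO NCM, and 0.0973 and 0.256% in WT NCM. The fractions thus differed in these markers as their names say. The CM fraction also held wells of other classes, described with the classes of wells.

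Mitochondrial DNA is a small circle that is transcribed from both strands into long precursors. Many of its mRNAs and both rRNAs are flanked by tRNAs, whose removal frees them. Most of the mRNAs and both rRNAs receive short poly(A) tails. The mRNAs encode subunits of respiratory complexes I, III, IV and V, all other proteins of mitochondria being made from nuclear genes. Heart muscle is rich in mitochondria, and a high share of mitochondrial RNA in a cell or well is also commonly read as a sign of a damaged cell.

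Mitochondrially encoded RNA took a share of UMIs that was high in the CM wells of all animals, high in the NCM wells of KO animals, and low in the NCM wells of WT animals. In the CM fraction mt- genes held 47.2 and 36.4% of all UMIs in KO1 and KO2, against 38.1 and 35.7% in WT1 and WT2. In the NCM fraction they held 58.1 and 36.5% in KO1 and KO2, against 7.45 and 11.2% in WT1 and WT2. The CM sets overlapped, while both KO NCM values lay above both WT NCM values. In CM the KO mean was 41.8% ± 7.63 and the WT mean 36.9% ± 1.69 (SD, n = 2 animals each), a difference of 4.94 points (two-sided exact permutation test over animals, p = 0.667). In NCM the KO mean was 47.3% ± 15.3 and the WT mean 9.33% ± 2.66, a difference of 38 points with p = 0.333 in the same exact test, the smallest p that 2 animals against 2 can give. Without KO1 the CM difference was -0.452 points, so its direction rests on that animal. The median CM well had 54.5 and 35.6% mt- UMIs in KO, against 33 and 33.2% in WT, a difference of 11.9 points in which the animals did not overlap (exact permutation p = 0.333).

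**Figure D1:**
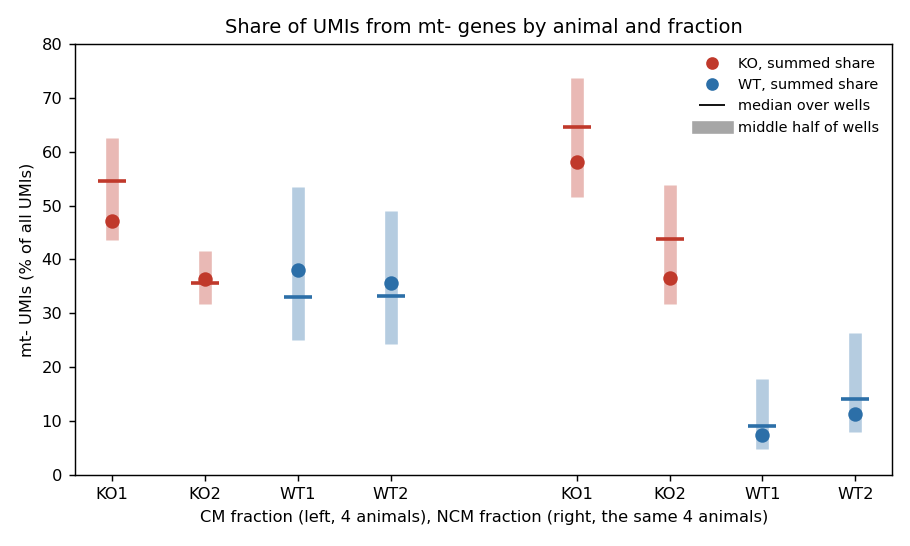
Share of all UMIs that came from mt- genes (y axis, %) for each animal, with the CM fraction on the left and the NCM fraction on the right. Points are summed shares, lines are medians over wells, and pale bars span the quartiles of wells. Summed shares are 35.7 to 47.2% in all CM sums, 58.1 and 36.5% in KO NCM and 7.45 and 11.2% in WT NCM.

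The difference ran through most NCM wells. The median well had 64.6% mt- UMIs in KO1 and 43.7% in KO2, against 9.03% in WT1 and 14.1% in WT2. Wells with at least 50% mt- UMIs made up 77.6 and 35.5% of KO NCM wells, against 2.75 and 2.99% of WT NCM wells. In the CM fraction they made up 62.9 and 13% of KO wells, against 27.1 and 23.7% of WT wells, with KO1 highest and KO2 lowest.

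Set in UMIs per well, the NCM wells differed in mt- UMIs by more than in the rest. The median KO NCM well held 48532 and 39009 mt- UMIs, against 6421 and 11497 in WT NCM. It held 27136 and 54544 other UMIs, against 53584 and 63700 in WT NCM. For mt- UMIs the sets did not overlap, and for other UMIs KO1 stood apart at the low end. Across wells the mt- share and the number of other UMIs ran against each other, with Spearman's rho of -0.68 and -0.66 in KO NCM and -0.67 and -0.69 in WT NCM. This describes wells of 1 sum, which share library and depth, and the share contains the count it is set against.

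Several measures moved with genotype in the NCM fraction beside the mt- share. All 6 erythroid markers were found in each NCM sum, and together they took 10.7 and 18.8% of UMIs outside mt- genes in KO, against 1.28 and 3.86% in WT. Read pairs per UMI were 4.28 and 3.94 in KO NCM and 3.35 and 3.40 in WT NCM. Aligned reads outside any annotated feature made up 37 and 30.6% in KO NCM, against 21 and 22.1% in WT NCM, and ambiguous reads 2.12 and 2.58%, against 4.08 and 3.78%. The nuclear RNA Malat1 held 1.14 and 1.08% of UMIs outside mt- genes in KO NCM, against 1.75 and 1.57% in WT NCM. None of these NCM sets overlapped. In CM, erythroid markers took 0.191 and 0.414% in KO, against 0.00304 and 0.00343% in WT. Read pairs per UMI were 3.05 and 2.88 in KO CM, against 2.42 and 2.38 in WT CM. Ambiguous reads went the other way in CM, at 3.60 and 3.81% in KO, against 3.04 and 3.15% in WT. For reads outside features and for Malat1 the CM sets overlapped. The part of these measures in the mt- result was not tested. With haemoglobin genes left out of the total, the NCM share was 60.8 and 41.4% in KO, against 7.54 and 11.6% in WT. In the authors' per-well reports, mitochondrial read pairs made up 31.6 and 20.3% of read pairs in KO NCM wells, against 4.42 and 6.52% in WT NCM. The same reports gave 26.4 and 21.2% in KO CM and 20.9 and 20% in WT CM, where both KO values lay above both WT values, unlike the summed UMI shares.

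The fractions differed in mt- share in the WT animals, with both CM values above both NCM values, and overlapped in the KO animals. CM minus NCM averaged 27.6 points in the WT animals and -5.46 points in the KO animals. Over all 4 animals it averaged 11.1 points and was positive in 2 of 4 (two-sided exact sign-flip permutation test over animals, p = 0.5).

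Within the mt- total, both rRNAs and a few of the mRNAs held nearly all UMIs. The large-subunit rRNA mt-Rnr2 had 38986793 UMIs over the 8 sums of animal and fraction, mt-Cytb (the complex III subunit cytochrome b) 35769381, and mt-Nd1 (complex I) 26415924. Next came the small-subunit rRNA mt-Rnr1 with 23676440 UMIs. Scaled for gene length, as the share of mt- UMIs per kilobase with all members adding up to 100%, mt-Cytb averaged 20.5%, mt-Nd1 17.9%, mt-Rnr2 16.9% and mt-Rnr1 14.9%. Below them among the mRNAs and rRNAs on the same length scale stood mt-Nd4 at 8.10%, mt-Nd2 at 7.12%, mt-Co1 at 4.38%, mt-Nd4l at 2.95%, mt-Nd6 at 2.54%, mt-Nd5 at 1.86% and mt-Nd3 at 0.113%. The tRNAs mt-Tq (1.71%), mt-Tp (0.419%), mt-Te (0.202%) and mt-Tn (0.183%) lay between mt-Nd5 and mt-Nd3 on this scale. The ranges of the first 4 over the 8 sums overlapped, so their order on this scale is not set.

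The members sit on mouse chromosome M of the GRCm38 (mm10) build, where many touch or overlap and others lie a few bases apart. The rRNAs mt-Rnr1 (chrM:70-1024) and mt-Rnr2 (chrM:1094-2675) and most mRNAs are encoded on the plus strand, among them mt-Nd1 (chrM:2751-3707), mt-Nd2 (chrM:3914-4951), mt-Co1 (chrM:5328-6872), mt-Nd4 (chrM:10167-11544), mt-Nd5 (chrM:11742-13565) and mt-Cytb (chrM:14145-15288). The complex I mRNA mt-Nd6 (chrM:13552-14070) is on the minus strand and overlaps the end of mt-Nd5. Whether reads were counted by strand is not given in the sources used here. Without strand, RNA of a minus-strand gene and plus-strand precursor across the same bases cannot be told apart.

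The rRNAs and mRNAs together held nearly the whole mt- total. The summed share of the rRNAs was 32.9 and 34.7% of mt- UMIs in KO CM, 34.6 and 33.1% in WT CM, 40.3 and 34.8% in KO NCM, and 41.6 and 38.7% in WT NCM. It was lower in CM than in NCM in 4 of 4 animals, by 5.03 points on average (CM minus NCM -5.03; exact sign-flip permutation p = 0.125, the smallest that 4 animals allow).

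The rRNAs differed from each other by genotype. The share of mt-Rnr1 was 12 and 12.7% of mt- UMIs in KO CM, against 11.1 and 9.78% in WT CM, and 17.3 and 14.8% in KO NCM, against 11.6 and 11.9% in WT NCM. The share of mt-Rnr2 was 20.9 and 22.0% in KO CM, against 23.5 and 23.3% in WT CM, and 22.9 and 20% in KO NCM, against 30 and 26.9% in WT NCM. In each fraction both KO animals were above both WT animals for mt-Rnr1 and below them for mt-Rnr2. Their ratio was 57.4 and 57.7 mt-Rnr1 UMIs per 100 mt-Rnr2 UMIs in KO CM, against 47.4 and 41.9 in WT CM. It was 75.6 and 74.1 in KO NCM, against 38.5 and 44.2 in WT NCM. Exact permutation p was 0.333 in both fractions, the smallest possible.

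The complex I mRNAs (mt-Nd1, mt-Nd2, mt-Nd3, mt-Nd4l, mt-Nd4, mt-Nd5 and mt-Nd6) encode membrane-arm subunits of the NADH dehydrogenase. Together they held 37.8 and 38.6% of mt- UMIs in KO CM, against 40.2 and 42.4% in WT CM, and 36.7 and 36.0% in KO NCM, against 30 and 31.8% in WT NCM. The KO animals were thus below the WT animals in CM (difference -3.12 points) and above them in NCM (difference 5.48 points), with no overlap in either (exact permutation p = 0.333 each). Their share was higher in CM in 4 of 4 animals, by 6.14 points on average (exact sign-flip permutation p = 0.125).

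The mt-Nd1 share of mt- UMIs was 16.3 and 17.5% in KO CM, against 15.6 and 15.8% in WT CM, and 13.5 and 15.5% in KO NCM, against 13.3 and 14.1% in WT NCM. The mt-Nd2 share was 6.34 and 6.88% in KO CM, against 7.21 and 8.24% in WT CM, and 6.94 and 6.94% in KO NCM, against 4.73 and 5.31% in WT NCM. The mt-Nd4 share was 10 and 9.87% in KO CM, against 11.5 and 12.3% in WT CM, and 10.6 and 9.51% in KO NCM, against 7.54 and 8.08% in WT NCM. For mt-Nd2 and mt-Nd4 the KO animals lay below the WT animals in CM and above them in NCM, while mt-Nd1 was above in CM and overlapped in NCM. The mt-Nd5 share was 3.19 and 2.74% in KO CM, against 3.41 and 3.59% in WT CM, and 3.57 and 2.5% in KO NCM, against 2.64 and 2.47% in WT NCM. The mt-Nd6 share was 1.14 and 0.951% in KO CM, against 1.34 and 1.39% in WT CM, and 1.46 and 0.974% in KO NCM, against 1.03 and 1.08% in WT NCM. For mt-Nd5 and mt-Nd6, KO lay below WT in CM, and the NCM sets overlapped with KO1 highest.

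The shortest complex I mRNAs held small shares. The mt-Nd4l share was 0.730 and 0.682% of mt- UMIs in KO CM, against 1.06 and 1.09% in WT CM, and 0.645 and 0.555% in KO NCM, against 0.730 and 0.737% in WT NCM. The mt-Nd3 share was 0.0213 and 0.0296% in KO CM, against 0.0483 and 0.0595% in WT CM, and 0.0262 and 0.0234% in KO NCM, against 0.0345 and 0.0368% in WT NCM. Both genes were lower in both KO animals in each fraction.

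The complex III mRNA mt-Cytb held 24.2 and 20.1% of mt- UMIs in KO CM, against 18.1 and 17.1% in WT CM, and 18.7 and 24.1% in KO NCM, against 21.6 and 22.5% in WT NCM. KO lay above WT in CM (difference 4.55 points), and in NCM KO1 was lowest and KO2 highest of the 4. Among complex IV (cytochrome oxidase) mRNAs, mt-Co1 held 5.08 and 6.36% in KO CM, against 6.90 and 7.12% in WT CM, and 4.13 and 5.02% in KO NCM, against 6.59 and 6.79% in WT NCM. The mt-Co1 share was lower in both KO animals in each fraction, and higher in CM than in NCM in 4 of 4 animals (exact sign-flip permutation p = 0.125).

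The remaining mRNAs were nearly missing from the counts. The complex IV mRNA mt-Co3 had 69 and 237 UMIs in KO CM, 91 and 128 in WT CM, 422 and 395 in KO NCM, and 75 and 115 in WT NCM. The complex V (ATP synthase) mRNA mt-Atp6 had 3 and 15 UMIs in KO CM, 14 and 16 in WT CM, 50 and 22 in KO NCM, and 0 and 15 in WT NCM. The complex IV mRNA mt-Co2 had 0 and 17 UMIs in KO CM, 1 and 9 in WT CM, 5 and 1 in KO NCM, and 1 and 0 in WT NCM. The complex V mRNA mt-Atp8 had 1 UMI in KO2 CM and 1 in KO2 NCM, and 0 in the other sums. At these counts no difference between groups was detectable for mt-Co2 or mt-Atp8.

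**Figure D2:**
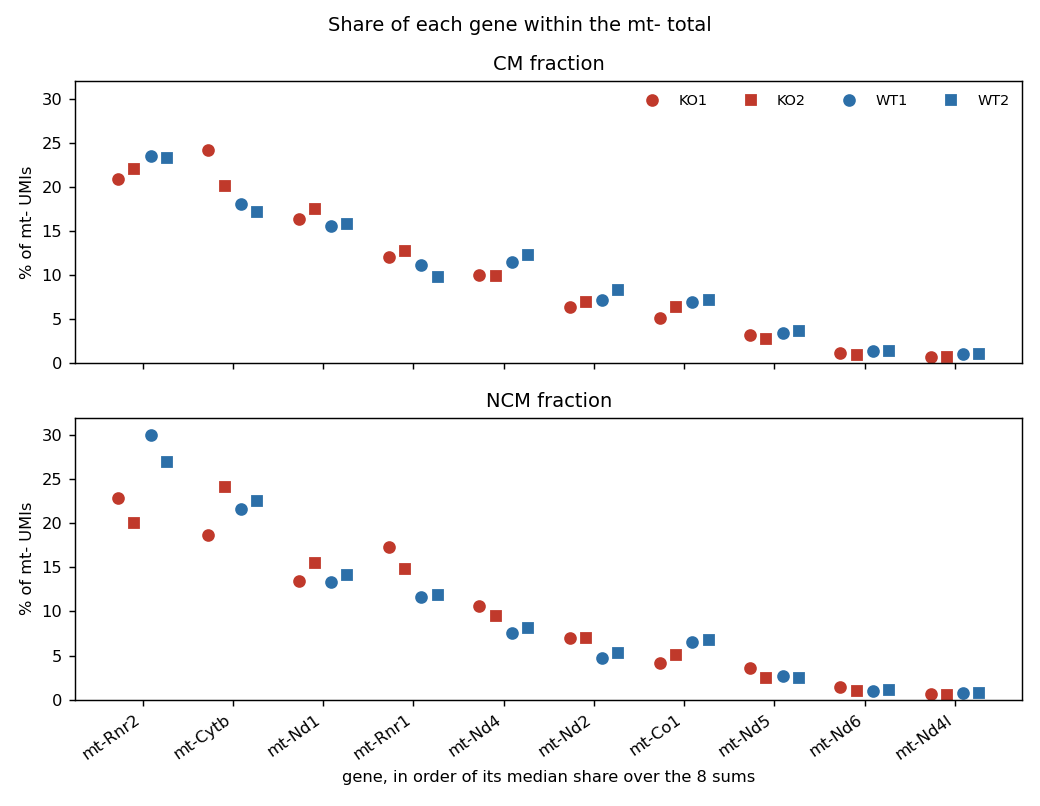
Share of each of the 10 most abundant mt- genes in the mt- total (y axis, % of mt- UMIs), with CM sums in the upper panel and NCM sums in the lower one and a marker per animal. In NCM the KO points lie above the WT points for mt-Rnr1 (17.3 and 14.8 against 11.6 and 11.9%) and below them for mt-Rnr2 (22.9 and 20 against 30 and 26.9%).

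Animals of 1 genotype also differed in composition. Counted as the percentage of mt- UMIs that would have to move to another gene to make 2 compositions equal, KO1 and KO2 lay 8.18 points apart in NCM and 4.89 in CM. WT1 and WT2 lay 3.38 points apart in NCM and 2.56 in CM. The mean KO and WT compositions in NCM lay 9.98 points apart, with a mean distance between animals of 1 genotype of 5.78 points.

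The tRNAs held 0.105 and 0.171% of mt- UMIs in KO CM, against 0.165 and 0.295% in WT CM, and 0.128 and 0.140% in KO NCM, against 0.195 and 0.162% in WT NCM. The 5 tRNA genes with the largest mean shares over the 8 sums all lie on the minus strand, whereas 11 of the 18 tRNA genes with a column lie on the plus strand. By total UMIs instead, the plus-strand gene mt-Ti (4375) would stand before mt-Tc (3328), the last of these 5. Minus-strand genes held 93.2 to 96.5% of tRNA UMIs in the 8 sums. The sequences of these 5 are shown because they carry nearly all tRNA UMIs. They are written 5′ to 3′ along the tRNA, without the added CCA end, from the GENCODE M21 transcripts (GRCm38), with the anticodon in capitals.
mt-Tq (glutamine; chrM:3772-3842, minus strand): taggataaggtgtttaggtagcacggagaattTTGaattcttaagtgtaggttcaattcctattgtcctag
mt-Tp (proline; chrM:15356-15422, minus strand): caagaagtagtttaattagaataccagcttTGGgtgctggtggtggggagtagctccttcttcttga
mt-Te (glutamate; chrM:14071-14139, minus strand): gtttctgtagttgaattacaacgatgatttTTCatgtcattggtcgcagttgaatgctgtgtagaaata
mt-Tn (asparagine; chrM:5089-5159, minus strand): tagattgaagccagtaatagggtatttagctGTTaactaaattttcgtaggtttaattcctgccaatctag
mt-Tc (cysteine; chrM:5192-5257, minus strand): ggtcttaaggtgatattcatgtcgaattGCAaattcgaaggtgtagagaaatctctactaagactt

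The glutamine tRNA mt-Tq had the most UMIs of the tRNAs in every sum. It held 0.0701 and 0.121% of mt- UMIs in KO CM, against 0.109 and 0.212% in WT CM, and 0.0854 and 0.0864% in KO NCM, against 0.0925 and 0.0867% in WT NCM. The proline tRNA mt-Tp held 0.0153 and 0.0204% in KO CM, against 0.0192 and 0.0263% in WT CM, and 0.0188 and 0.0256% in KO NCM, against 0.0466 and 0.0266% in WT NCM. Both were lower in both KO animals than in both WT animals in NCM, but KO2 and WT2 nearly tied there. They had 0.0864 and 0.0867% for mt-Tq, and 0.0256 and 0.0266% for mt-Tp. The CM sets of both genes overlapped.

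The glutamate tRNA mt-Te held 0.00377 and 0.00694% of mt- UMIs in KO CM, against 0.0148 and 0.0275% in WT CM, and 0.00651 and 0.00638% in KO NCM, against 0.0192 and 0.0139% in WT NCM. The cysteine tRNA mt-Tc held 0.000884 and 0.00114% in KO CM, against 0.000895 and 0.00142% in WT CM, and 0.000828 and 0.00180% in KO NCM, against 0.00814 and 0.00735% in WT NCM. The mt-Te share was lower in both KO animals in each fraction, and the mt-Tc share stood out by its level in WT NCM. The asparagine tRNA mt-Tn averaged 0.0115% of mt- UMIs over the 8 sums. Each of the other 13 tRNAs had at most 4375 UMIs in all, and mt-Ts1 had 11.

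To set each gene against the rest of the transcriptome, UMIs were summed per animal and fraction and tested with edgeR's quasi-likelihood test over 17891 genes, with Benjamini-Hochberg adjustment and a call at an adjusted p under 0.05. A filter on low counts let 31 of the 33 members through, leaving out mt-Atp8 and mt-Ts1.

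In CM wells no difference between KO and WT animals was detectable for the mt- genes, with 0 of 31 tested members called (background 0% of all genes higher and 0% lower). At an unadjusted p under 0.05 it was 1 of 31 members, against 6.76% of all genes, and DESeq2 called 0 members, with 0.458% of all genes higher and 0.592% lower. The log2 differences of KO over WT were positive for 7 members and negative for 24, with a median of -0.12 and a range of -1.79 to 0.75. The lowest was mt-Te, with 18.88 and 37.72 TMM-scaled CPM in KO CM, against 64.64 and 131.1 in WT CM (log2 difference -1.79, SE 0.522, edgeR adjusted p = 0.7245).

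In NCM wells all 31 tested members had a positive log2 difference of KO over WT, and 0 were called after adjustment over all genes (background 0% higher and 0% lower). Log2 differences ran from 0.48 to 3.70 with a median of 3.03, where the median of all genes was -0.01. At an unadjusted p under 0.05 it was 25 of 31 members, against 7.72% of all genes. DESeq2 called 24 of 31 members higher (background 1.11% of all genes), so the call depends on the tool.

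The small-subunit rRNA mt-Rnr1 had 120169 and 52100 TMM-scaled CPM in KO NCM, against 4914 and 8378 in WT NCM (log2 difference 3.70, SE 0.565, edgeR adjusted p = 0.185). The complex I mRNA mt-Nd2 had 48095 and 24414 in KO NCM, against 2012 and 3747 in WT NCM (log2 difference 3.65). Its neighbour in rank mt-Nd4 had 73415 and 33450 in KO NCM, against 3202 and 5702 in WT NCM (log2 difference 3.59). In each of these the lower KO animal stood well above the higher WT animal. The large-subunit rRNA mt-Rnr2 had 158923 and 70296 in KO NCM, against 12768 and 18962 in WT NCM (log2 difference 2.85, edgeR adjusted p = 0.341). The cytochrome b mRNA mt-Cytb had 129944 and 84639 in KO NCM, against 9191 and 15871 in WT NCM (log2 difference 3.10, edgeR adjusted p = 0.195). The oxidase mRNA mt-Co1 had 28635 and 17642 in KO NCM, against 2801 and 4794 in WT NCM (log2 difference 2.61). None of these groups overlapped. At the low end mt-Tc had 5.738 and 6.342 in KO NCM, against 3.457 and 5.186 in WT NCM (log2 difference 0.48). With libraries scaled by their totals instead, the median of all genes moved to -0.84 and that of the members to 2.22, and mt-Tc turned to -0.33.

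**Figure D3:**
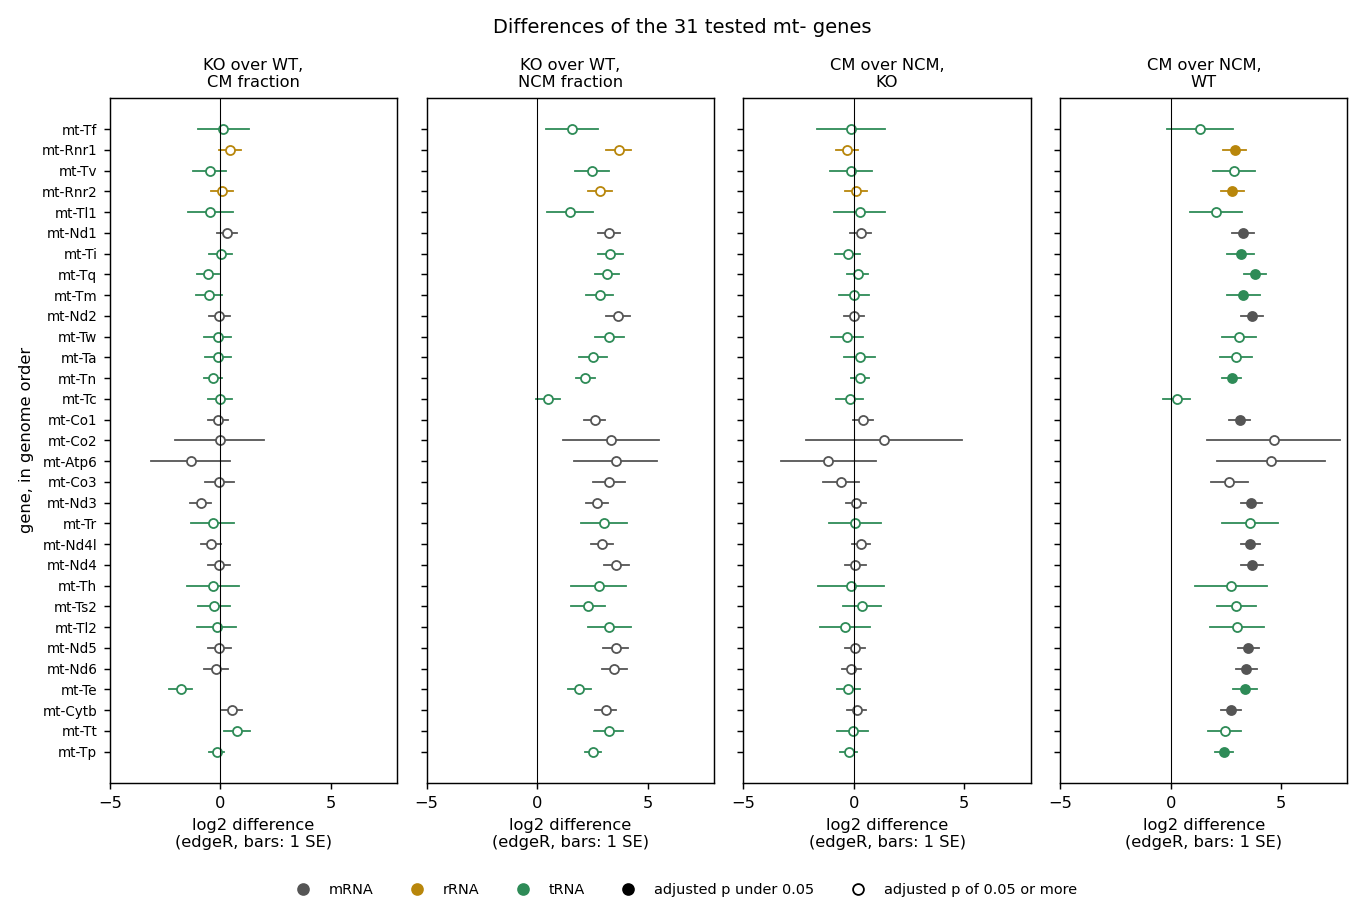
Log2 differences (x axis; bars are 1 SE) of the 31 tested mt- genes in genome order (y axis) for KO over WT in CM, KO over WT in NCM, CM over NCM in KO, and CM over NCM in WT. Filled points have an edgeR adjusted p under 0.05, which holds for 17 genes in the right panel and none in the others; medians are -0.12, 3.03, 0.01 and 3.09 from left to right.

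The fractions were compared within animals, with animal as a block. In WT animals 17 of 31 members were higher in CM than in NCM, against a background of 4.82% of all genes called higher, and none was lower (background 1.22%). Before adjustment, 25 of 31 members had p under 0.05, against 19.6% of all genes. The 17 called members were both rRNAs, 9 mRNAs and 6 tRNAs. The median log2 difference over the 31 members was 3.09, with a range of 0.28 to 4.67, where the median of all genes was -0.19. With libraries scaled by their totals, the median of all genes moved to -1.24, the members' median to 2.04, and 12 members were called. Of 17891 genes, 609 were then called higher and 1806 lower. With WT1 left out 0 members were called, and with WT2 left out 3, so the calls need both WT animals.

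Among complex I mRNAs, mt-Nd4 had 50435 and 58402 TMM-scaled CPM in WT CM, against 3202 and 5702 in WT NCM (log2 difference 3.67, edgeR adjusted p = 0.00613). The mRNA mt-Nd2 had 31581 and 39274 in WT CM, against 2012 and 3747 in WT NCM (log2 difference 3.68, edgeR adjusted p = 0.00544). The mRNA mt-Nd1 had 68516 and 75285 in WT CM, against 5636 and 9937 in WT NCM (log2 difference 3.26, edgeR adjusted p = 0.00880). All WT CM values lay above all WT NCM values. The other complex I mRNAs also rose: mt-Nd3 by 3.65, mt-Nd4l by 3.61, mt-Nd5 by 3.51 and mt-Nd6 by 3.43 on the log2 scale. Outside complex I, mt-Cytb had 79363 and 81299 in WT CM, against 9191 and 15871 in WT NCM (log2 difference 2.73, edgeR adjusted p = 0.0142). The mRNA mt-Co1 had 30251 and 33913 in WT CM, against 2801 and 4794 in WT NCM (log2 difference 3.13, edgeR adjusted p = 0.00860).

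The rRNA mt-Rnr1 had 48771 and 46585 in WT CM, against 4914 and 8378 in WT NCM (log2 difference 2.89, SE 0.527, edgeR adjusted p = 0.0186). The rRNA mt-Rnr2 had 102810 and 111069 in WT CM, against 12768 and 18962 in WT NCM (log2 difference 2.78, edgeR adjusted p = 0.0200). The called tRNAs were mt-Tq (3.82), mt-Te (3.37), mt-Tm (3.29, methionine), mt-Ti (3.17, isoleucine), mt-Tn (2.76) and mt-Tp (2.42), each a log2 difference of CM over NCM. Of the members not called, mt-Co3 had a log2 difference of 2.66 (edgeR adjusted p = 0.135) and mt-Tc, lowest of all, 0.28.

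In KO animals 0 of 31 members were called in the same comparison (background 3.71% higher and 1.15% lower). At an unadjusted p under 0.05 it was also 0 of 31, against 20% of all genes, and DESeq2 called 0 members, with 9.34% of all genes higher. Log2 differences were positive for 16 members and negative for 15, with a median of 0.01. The animals went different ways: the members' median was 0.68 without KO1, with 30 of 31 positive, and -0.61 without KO2, with all 31 negative. The test of the difference between the fraction effects, KO minus WT, gave negative values for all 31 members with a median of -3.25. It called none (background 0% in each direction), with 21 of 31 members at an unadjusted p under 0.05, against 4.99% of all genes, and DESeq2 called 18 lower (background 0.592%).

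Nuclear genes of the same organelle were set beside the members, from lists fixed by name. Of 83 nuclear respiratory chain subunits, 65 were higher in CM than in NCM in KO (median log2 difference 2.30) and 78 in WT (median 2.77), and none was lower. The background of all genes called higher was 3.71% in KO and 4.82% in WT, for this list and those that follow. The muscle isoforms of cytochrome oxidase subunits were among them. Cox6a2 differed by 4.88 in KO and 6.32 in WT, Cox8b by 4.06 and 5.72, and Cox7a1 by 3.86 and 5.67 (log2 of CM over NCM). Nuclear subunits were thus called in both genotypes, whereas mt- genes were called in WT and not in KO, a difference that was tested for the mt- genes above and not called by edgeR.

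Of 76 tested mitochondrial ribosomal protein genes, 25 were higher in CM in KO (median 1.45) and 18 in WT (median 1.21), among them Mrps23 with log2 differences of 2.26 in KO and 2.42 in WT. Of 37 genes for mitochondrial RNA synthesis, processing and decay, 2 were higher in CM in each genotype, a share near that background. In KO these were Fastk (3.03, edgeR adjusted p = 0.0158), of a family of RNA-binding proteins, and Hsd17b10 (2.00, edgeR adjusted p = 0.0319), a subunit of mitochondrial RNase P. In WT they were Grsf1 (3.29, edgeR adjusted p = 0.0429), a protein of mitochondrial RNA granules, and Tefm (2.37, edgeR adjusted p = 0.0324), the transcription elongation factor. In KO against WT none of the 3 lists had a call in either fraction. Their medians in NCM were -0.05 for respiratory chain subunits, -0.28 for ribosomal proteins and -0.11 for RNA genes, where that of the mt- members was 3.03. In CM the same medians were -0.20, 0.12 and 0.05.

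Wells were then grouped into classes by clusters made without mt- and haemoglobin genes, and each class was named from markers. In the NCM fraction the mt- share was higher in both KO animals than in both WT animals in each of the 4 classes with enough wells. Endothelial-like wells (269 and 126 in KO, 68 and 153 in WT) had 63.7 and 43.3% mt- UMIs in KO, against 11.6 and 13.1% in WT. Fibroblast-like wells (104 and 115 in KO, 161 and 126 in WT) had 44.4 and 27.5% in KO, against 5.04 and 6.38% in WT. Macrophage-like wells (44 and 42 in KO, 104 and 88 in WT) had 44.0 and 23.3% in KO, against 3.90 and 5.47% in WT. Neutrophil-like wells (34 and 23 in KO, 72 and 37 in WT) had 61.6 and 41.0% in KO, against 10.9 and 11.9% in WT. Within an animal, macrophage-like and fibroblast-like wells had the lower shares of these 4 classes, and endothelial-like and neutrophil-like wells the higher ones. Haemoglobin UMIs took 1.45 and 4.62% in KO, against 0.0520 and 0.513% in WT, in endothelial-like wells. Macrophage-like wells had 1.96 and 7.19% in KO, against 0.0301 and 0.168% in WT, and neutrophil-like wells 8.03 and 16.5% in KO, against 0.498 and 0.108% in WT. Fibroblast-like wells had 1.39 and 7.66% in KO, against 0.668 and 2.89% in WT, which overlapped, unlike the other classes. Their part in the result was not tested.

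A cluster of NCM wells without a name (142 and 255 wells in KO, 121 and 147 in WT) was led by the cardiomyocyte genes Cox6a2, Tnnt2 and Myh6, but had too low a share of cardiomyocyte markers for a name. It had the highest WT values in NCM, with 70.8 and 46.5% mt- UMIs in KO, against 20.8 and 35.6% in WT. Another unnamed cluster was led by red-cell genes such as Alas2, with 55 and 122 wells in KO, against 2 and 4 in WT, and had 50.7 and 31.4% mt- UMIs in KO.

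**Figure D4:**
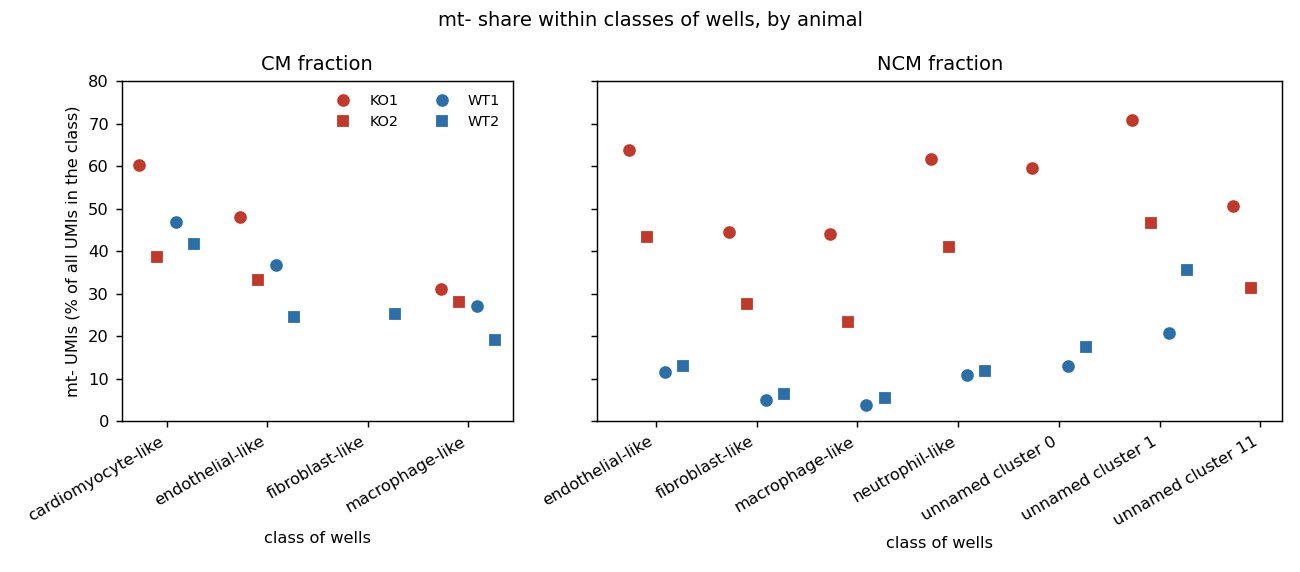
Share of UMIs from mt- genes (y axis, %) summed over wells of a class, per animal, with CM classes on the left and NCM classes on the right; a point is shown where the animal had at least 20 wells. In NCM both KO points lie above both WT points in the 4 named classes, and in CM cardiomyocyte-like wells the points mix (60.3 and 38.7% in KO, 46.8 and 41.7% in WT).

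In the CM fraction, cardiomyocyte-like wells (133 and 266 in KO, 116 and 194 in WT) had 60.3 and 38.7% mt- UMIs in KO, against 46.8 and 41.7% in WT. The class joined 2 clusters. The one led by Pgam2 held 129 and 213 CM wells in KO and 80 and 102 in WT, and the one led by Ttn and Atp2a2 held 4 and 53 in KO and 36 and 92 in WT. Endothelial-like wells had 48.0 and 33.2% in KO, against 36.8 and 24.6% in WT, and macrophage-like wells had 31.1 and 28.1% in KO, against 27.2 and 19.2% in WT. Only the macrophage-like values did not overlap between genotypes. Cardiomyocyte markers were also present in CM wells named for other classes. In CM endothelial-like wells they took 2.03 and 5.21% of UMIs outside mt- genes in KO animals and 3.58 and 5.95% in WT animals. In cardiomyocyte-like wells they took 4.58 and 6.84% in KO animals and 7.01 and 7.58% in WT animals.

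Tested class by class in NCM (KO against WT), 7 of 22 members were higher in neutrophil-like wells, against a background of 0.170% of all genes higher and 0.0486% lower. They were mt-Rnr1 (log2 difference 3.52), mt-Nd4 (3.44), mt-Nd2 (3.35), mt-Cytb (3.08), mt-Nd1 (3.05), mt-Co1 (2.67) and mt-Rnr2 (2.59), with edgeR adjusted p between 0.0118 and 0.0472. In macrophage-like wells 5 of 25 members were higher (background 0.0737% higher and 0% lower), namely mt-Nd2 (3.91), mt-Rnr1 (3.87), mt-Nd4 (3.73), mt-Nd5 (3.71) and mt-Nd1 (3.38), each with an edgeR adjusted p of 0.0499. Before adjustment, 18 of 25 members passed p under 0.05 in macrophage-like wells, against 6.77% of all genes, and 14 of 22 in neutrophil-like wells, against 8.42%. Neither set of calls held without WT2, when both counts were 0, and the macrophage-like count was also 0 without WT1. With libraries scaled by their totals in place of TMM, both counts were 0. In fibroblast-like wells 0 of 27 members were called (median 2.91; background 0% higher and 0% lower), with 22 of 27 members and 10.1% of all genes at an unadjusted p under 0.05. In endothelial-like wells it was 0 of 27 (median 2.79; background 0% higher and 0% lower), with 18 of 27 members and 6.33% of all genes at an unadjusted p under 0.05. DESeq2 called 14 members higher in fibroblast-like wells (background 1.86%) and 15 in endothelial-like wells (background 0.911%).

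In the CM fraction (KO against WT) no member was called in cardiomyocyte-like wells (0 of 29, median -0.23), endothelial-like wells (0 of 27, median 0.26) or macrophage-like wells (0 of 25, median 0.40), with a background of 0% in each. At an unadjusted p under 0.05, 2, 0 and 0 members and 4.49, 6.39 and 5.99% of all genes passed in these classes. DESeq2 called 1 member (lower) in cardiomyocyte-like wells, with 0.561% of all genes higher and 0.192% lower. It called 0 members in endothelial-like wells (background 0.384% higher and 0.301% lower). In macrophage-like wells it also called 0 members, with 49 of 12212 genes higher and 63 lower. Without KO2 the cardiomyocyte-like calls were 3 higher and 1 lower, with 402 genes higher and 386 lower of 12982 tested.

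The fraction difference was also present in WT among wells given the same class name. In WT, CM over NCM, 13 of 27 members were higher in endothelial-like wells (median 2.24; background 2.85% higher and 0.753% lower) and 9 of 25 in macrophage-like wells (median 2.66; background 1.02% higher and 0.0573% lower). Nearly all of these calls were lost without WT1 or without WT2, which leaves 1 WT animal. The members' medians were then 1.77 and 2.15 without WT1, and 2.42 and 3.06 without WT2. In KO none was called in endothelial-like wells (median -0.41; background 1.34% higher and 0.181% lower) or macrophage-like wells (median -0.12; background 0% in each direction). At an unadjusted p under 0.05, 0 and 0 members and 10.3 and 9.40% of all genes passed in those KO comparisons. DESeq2 called 0 members in each, with 4.75 and 3.68% of all genes higher. The difference of the fraction effects called 0 of 27 and 0 of 25 members (background 0% in each direction). Before adjustment, 14 and 12 members had p under 0.05, against 4.93 and 4.27% of all genes, and DESeq2 called 13 and 10 members lower (background 0.731 and 0.811%). Most endothelial-like wells of the CM and NCM fractions came from different clusters, and the cardiomyocyte markers in their CM wells are given above. In macrophage-like wells cardiomyocyte markers took 0.898 and 3.88% of UMIs outside mt- genes in KO CM, and 2.87 and 3.54% in WT CM. In macrophage-like NCM wells they took 0.181 and 0.343% in KO and 0.0755 and 0.133% in WT. The part of these markers was not tested.

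Some mt- sequence is also present in the nuclear genome, as copies annotated as genes of their own, and a read that matches both places need not be counted for the mt- gene. Among stretches of 50 bases, all of mt-Co2 (100%), 99.9% of mt-Co3, 99.5% of mt-Atp6, 98.8% of mt-Nd4l and 98.0% of mt-Nd3 also occur in an annotated nuclear transcript. The share was 62.2% for mt-Nd4, 51.1% for mt-Co1, 8.19% for mt-Nd2, 7.61% for mt-Nd5 and 1.04% for mt-Rnr2. It was 0% for mt-Nd1, mt-Cytb, mt-Rnr1, mt-Nd6 and mt-Atp8. Of the 5 mRNAs with the fewest UMIs, mt-Atp8 (2 UMIs) shares no stretch of 50 bases, and the other 4 share nearly all. The last 43 bases of mt-Atp8 (162 to 204) match Gm10925 at 100%, however. Nuclear sequence outside annotated transcripts was not searched, so a copy of mt-Atp8 there would not be seen. The mRNA mt-Nd4l shares nearly all its stretches yet had 1241572 UMIs. The authors' per-well reports list 0 multi-mapping alignments in every sum, and how reads with several matches were treated is otherwise not stated. The part of shared sequence in the values of these genes was not tested.

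**Figure D5:**
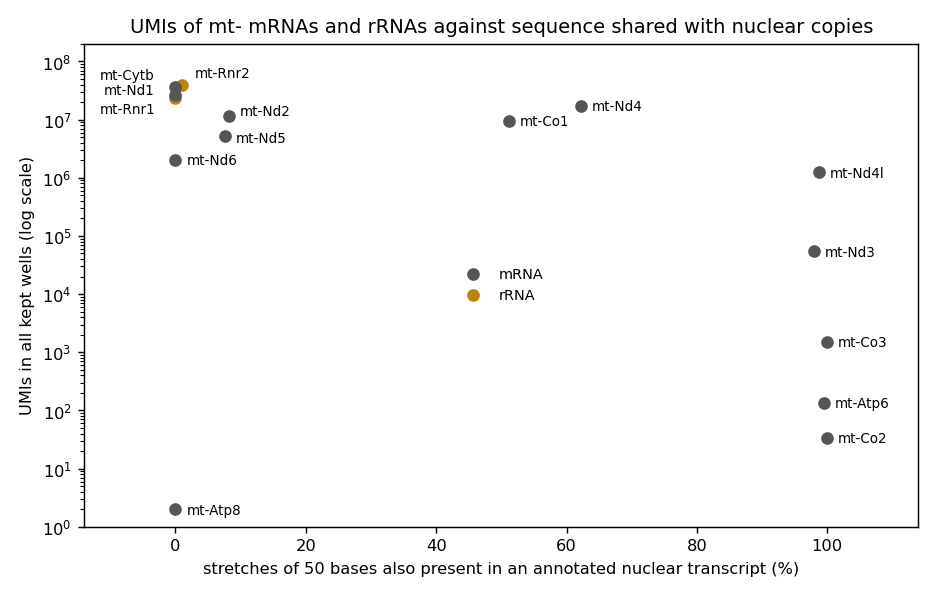
UMIs of each mt- mRNA and rRNA over all kept wells (y axis, log scale) against the percentage of its stretches of 50 bases that also occur in an annotated nuclear transcript (x axis). Genes with 1.04% or less hold the 4 largest totals and also the smallest, mt-Atp8 with 2 UMIs. The genes mt-Co2, mt-Atp6 and mt-Co3 lie at 99.5% or more with 34, 135 and 1532 UMIs. Sequence outside annotated transcripts was not searched, and mt-Atp8 matches Gm10925 over 43 bases, fewer than the 50 counted here.

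The ends of 4 mRNAs are shown beside their copies, because they cover the span from full identity to a distant copy. All are written 5′ to 3′ along the mRNA from GENCODE M21 (GRCm38), with bases that differ in capitals.
mt-Co2, bases 595 to 684 (chrM:7607-7696, plus strand): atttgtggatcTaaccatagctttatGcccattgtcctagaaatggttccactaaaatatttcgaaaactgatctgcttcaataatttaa
Gm13341 (chr2:22587291-22587380, minus strand): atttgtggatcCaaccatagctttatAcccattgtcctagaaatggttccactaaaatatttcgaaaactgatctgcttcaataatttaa
mt-Co3, bases 694 to 783 (chrM:9300-9389, plus strand): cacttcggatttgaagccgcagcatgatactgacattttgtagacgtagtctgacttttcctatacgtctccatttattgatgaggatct
Gm28437 (chr1:24613189-24613278, minus strand): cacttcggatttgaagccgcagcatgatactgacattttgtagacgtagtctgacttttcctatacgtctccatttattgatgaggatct
mt-Nd4l, bases 205 to 294 (chrM:10081-10170, plus strand): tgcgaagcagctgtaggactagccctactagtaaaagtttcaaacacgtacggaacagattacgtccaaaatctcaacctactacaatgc
Gm10222 (chr1:24612407-24612496, minus strand): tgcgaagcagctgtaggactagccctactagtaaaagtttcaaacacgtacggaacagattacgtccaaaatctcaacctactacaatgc
mt-Cytb, bases 1054 to 1143 (chrM:15198-15287, plus strand): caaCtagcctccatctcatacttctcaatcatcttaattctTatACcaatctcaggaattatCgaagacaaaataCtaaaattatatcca
Gm11410 (chr4:80005042-80005131, plus strand): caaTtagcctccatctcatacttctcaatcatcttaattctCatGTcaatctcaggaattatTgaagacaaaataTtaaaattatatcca

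Counted from base 1 of the mt- mRNA, with its base first, Gm13341 differs from mt-Co2 here by T606C and G621A. Gm11410 differs from mt-Cytb by C1057T, T1095C, A1098G, C1099T, C1116T and C1129T. The mt-Co3 and mt-Nd4l stretches are identical to their copies. Another copy of mt-Co2, Gm28661, is not shown and is identical to mt-Co2 over bases 1 to 681.

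Of the copies listed by name, Gm28437, Gm28661, Gm28438, Gm28439, Gm29216 and Gm10925 have no column in the tables. Gm13341, which is 95.91% identical to mt-Co2 along its length, had 58430 to 410190 UMIs in each of the 8 sums, or 6.88 to 9.98 per 1000 mt- UMIs, whereas mt-Co2 itself had 34 UMIs in all. Gm13340 had 0.781 to 1.13 per 1000 and Gm13339 0.0242 to 0.0449. Gm10222 had 0.000731 to 0.00340 per 1000 and Gm10221, with the widest range, 0.476 to 10.2 per 1000. Gm10221 was listed by name only, and it was not among the best matches found for any mt- gene. Each range gives the lowest and the highest of the 8 sums.

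In KO over WT in NCM, the log2 differences were 3.43 for Gm13341 (edgeR adjusted p = 0.185), 3.50 for Gm13340, 3.78 for Gm13339 and 3.95 for Gm10222, and -0.15 for Gm10221, with none called. In CM over NCM in WT, the copies Gm13341 (3.05, edgeR adjusted p = 0.00711), Gm13340 (2.97, 0.00488) and Gm13339 (3.20, 0.0136) rose. Gm10221, for which no match is given, rose as well (2.39, edgeR adjusted p = 0.0156). In the KO animals Gm10221 was called (1.91, edgeR adjusted p = 0.0446) and the others were not. Gm13341 and Gm13340 thus had log2 differences within the range of the mt- members in both comparisons, and Gm13339 lay just above that range in the first and within it in the second. Whether their UMIs came from nuclear or mitochondrial RNA was not tested.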

How the data were processed

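The deposited values are UMI counts per gene and well, which the authors made from polyadenylated RNA; the deposited per-well reports give counts of read pairs, alignments and UMIs. Alignment and counting tools named in the submitters' processing notes are STAR 2.5.2b, Subread 1.4.6-p1 and featureCounts, with the mm10 build. No source used here gives the annotation release, strand setting or UMI rule. Of the gene columns, 28604 matched a symbol in GENCODE M21. The 70 spike-in columns (4.98e-05% of UMIs) and control wells were left out, and 0 columns of per-sample values lacked a sample.

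Wells with at least 10000 UMIs and 300 genes were kept. UMIs were summed per animal and fraction into 8 sums, named by the per-well reports. KO and WT were compared in edgeR 4.0.16 (TMM, filterByExpr, quasi-likelihood, Benjamini-Hochberg over all genes) with 1 mean per genotype and fraction, and CM and NCM with animal as a block, since each animal gave both fractions. DESeq2 1.42.0 was an alternative. The fits were also run on simulated data, and no result given here rests on that run. Shares were tested by exact permutation over animals. For KO against WT the smallest exact permutation p is 0.333, reached whenever the groups do not overlap, however wide their spread. With 2 animals per genotype, every estimate of spread rests on few samples. Totals per sum set the precision of each value, and counting error is far below the spread between animals except for genes with few UMIs.

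Classes came from scanpy 1.11.5 (2000 variable genes, 30 components, 15 neighbours, Leiden resolution 1.0) without mt- and haemoglobin genes. A cluster was named where at least 3 markers with a log2 fold of at least 1 were among its 50 leading genes and no other class had more among the first 10. Folds were taken within libraries, but both cardiomyocyte-like clusters got their name only against all other wells, one of them with 0 own markers among its first 10 genes. Its markers' share had also to reach 0.25 of that of the highest cluster. This naming rule was set after the clusters were seen, and another naming could move class values. No doublet caller was run. A class was tested with at least 20 wells per animal. Every mt- mRNA and rRNA is named; tRNAs are named for the 5 largest mean shares and where called. Members and lists were chosen with earlier results of these data known. Stretches shared with nuclear transcripts were counted as exact matches of 50 bases on either strand.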

Additional observations from a re-analysis of the deposited data

Results flagged for a closer look

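The KO minus WT difference in share of mt- UMIs ran in opposite directions in the fractions for 2 genes and 1 group, with every KO animal on one side of every WT animal in each. For mt-Nd2 it was -1.11 points in CM and 1.92 points in NCM. For mt-Nd4 it was -1.94 points in CM and 2.24 points in NCM. For the complex I mRNAs together it was -3.12 points in CM and 5.48 points in NCM. The difference between fractions was not tested.

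Negative control wells, 5 per chip, carried mt- UMIs at shares that differed between chips. These were 32.8% (207 of 631 UMIs) on the KO CM chip, 45.2% (555 of 1229) on the KO NCM chip, 43.0% (1437 of 3344) on the WT CM chip and 10.1% (71 of 706) on the WT NCM chip. The NCM shares lay between those of the animals on their chip, the KO CM share below both and the WT CM share above both. A single well held 1757 of the WT CM control UMIs, and another held 939 of those on the KO NCM chip. Positive control wells had 32.1, 45.2, 32.4 and 9.05% mt- UMIs on these chips, in the same order. The totals are small beside the 10000 UMIs asked of a kept well.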

How the results depend on the processing

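Counts of members called moved with the tool, the filter on low counts and single animals. DESeq2 called 24 (KO against WT, NCM), 18 (difference of fraction effects), 1 (cardiomyocyte-like CM), 15, 14, 14 and 13 (endothelial-, fibroblast-, macrophage- and neutrophil-like NCM), and 13 and 10 (endothelial- and macrophage-like differences). Of all genes, DESeq2 called 1.46% higher in macrophage-like and 1.92% in neutrophil-like NCM wells, with its other backgrounds given above. Without a filter on low counts edgeR called 18 members higher (NCM), 1 lower (CM) and 14 lower (difference). Of 29097 genes it then called 174 higher and 68 lower in NCM, 62 and 70 in CM, and 19 and 49 for the difference. With library totals edgeR called 0 and 0 (macrophage- and neutrophil-like NCM) and 3 (macrophage-like CM over NCM, WT), and mt-Tc in NCM was -0.33. In that macrophage-like comparison of fractions it called 65 of 12212 genes higher and 11 lower.

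Leaving out 1 animal at a time (chosen after seeing the data for the classes), the mt- share difference was -0.452 to 10.3 points in CM, 27.2 to 48.8 in NCM and 4.52 to 18.4 for CM minus NCM. Calls ranged from 0 to 9 (NCM), 0 to 14 (difference) and 0 to 20 (CM over NCM, WT). By class they ranged from 0 to 11 (endothelial-, fibroblast- and macrophage-like NCM), 0 to 10 (neutrophil-like NCM), 0 to 4 (cardiomyocyte-like CM), 0 to 13 and 0 to 12 (endothelial- and macrophage-like, CM over NCM, WT), 0 to 1 (endothelial-like, KO), and 0 to 12 and 0 to 11 (differences). An animal left alone in its group was assumed to vary like the others. Gm10221 in NCM ranged from -0.49 to 0.10, with 0.10 without KO1.

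For KO against WT, no paired analysis was possible because an animal has 1 genotype. With no replicate block, CM over NCM called 19 members in WT and 0 in KO. Of 17891 genes, 534 were then called higher and 170 lower in WT, and 284 and 128 in KO. A finer clustering gave no value for several classes. With wells of at least 50000 UMIs the share differences were 38.1 (NCM), 4.50 (CM) and 11.6 points (CM minus NCM), and over the authors' mitochondrial alignments, a measure added after seeing the data, 27.9, 1.42 and 13.2. Of 583 alternatives for single genes, 480 kept direction and side of the threshold, 65 lost a call, 36 gained one and 2 reversed; 8 of 53 such results were the same under every alternative. A count of 0 that stayed 0 says nothing about stability.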
